A study of Mus musculus with 8 samples.

Results

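The genes described here encode the enzymes that make cytosolic acetyl-CoA and turn it into long-chain fatty acids, together with the protein Thrsp. They were measured in mouse brown adipose tissue (BAT) following thoracic aortic constriction (TAC) or a sham operation (Sham). There are 10 of them, Acly, Acss2, Acaca, Acacb, Fasn, Me1, Elovl6, Scd1, Scd2 and Thrsp, among the 21154 genes named on the array. They were chosen by their place in this pathway and by the lower level of lipogenic genes after TAC that an earlier analysis of the same arrays had shown. Their differences between TAC and Sham are therefore given as a description, with no test.

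TAC narrows the aorta, so that the left ventricle has to pump against a raised pressure. Both groups were male C57BL/6NCrSlc mice on normal chow, with no other treatment or allele in the labels. They were operated on at 11 weeks of age, BAT was taken at 13 weeks of age, and each group had 4 mice with 1 Agilent array per mouse. The labels give 2 weeks after surgery in one field and 4 weeks in another, and only 2 weeks fits the ages. Scanner intensities of the 4 TAC arrays and of Sham replicates 2 to 4 gave the differences and SDs, and a table of relative intensities of all 8 arrays gave the values per array. A relative intensity of 1 is about the 75th percentile of the probes of that array, and it may be compared between arrays for 1 probe but not between probes. All 7 scanner arrays lay on 1 slide with Sham in 1 row and TAC in the other, so that slide row and surgery cannot be told apart. Between 54.5% and 64.3% of the spots of an array were well above background. Genes that define brown adipocytes, such as Ucp1 and Cidea, were well above background for 8 of 8 markers, as were 7 of 7 markers shared by all adipocytes.

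Fatty acid synthesis starts from citrate that leaves the mitochondrion, and in the cytosol Acly cleaves it to acetyl-CoA, while Acss2 makes acetyl-CoA from acetate. Acaca and Acacb carboxylate acetyl-CoA to malonyl-CoA, Fasn joins these units to palmitate with NADPH that Me1 helps to supply, and Elovl6 and the Scd enzymes lengthen and desaturate the product. In BAT the pathway is known to run beside fat oxidation, to be induced by insulin and thyroid hormone, and to be driven by the transcription factors SREBP-1c and ChREBP.

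Promoters of 8 of the 10 genes were found in a table of RefSeq promoters on GRCm38.p6, as 9 promoters because Me1 has 2 start sites. Scd1 and Scd2 had no entry. The 250 bases before the start are shown for 3 genes, all on the minus strand and written 5′ to 3′: Fasn, which had the largest difference among the members, Acly, the first step of the pathway, and Thrsp, which had one of the smallest. The Fasn promoter is chr11:120824548-120824797, that of Acly chr11:100528001-100528250 and that of Thrsp chr7:97417551-97417800. Capitals mark matches, on either strand, to CCAAT, the box bound by NF-Y, and to GGGCGG, the GC box bound by Sp1.
Fasn: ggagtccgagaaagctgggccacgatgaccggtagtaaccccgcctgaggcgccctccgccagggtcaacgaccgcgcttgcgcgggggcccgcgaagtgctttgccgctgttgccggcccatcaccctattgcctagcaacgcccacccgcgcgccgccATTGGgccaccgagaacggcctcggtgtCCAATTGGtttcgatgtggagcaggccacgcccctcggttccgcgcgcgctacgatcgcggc
Acly: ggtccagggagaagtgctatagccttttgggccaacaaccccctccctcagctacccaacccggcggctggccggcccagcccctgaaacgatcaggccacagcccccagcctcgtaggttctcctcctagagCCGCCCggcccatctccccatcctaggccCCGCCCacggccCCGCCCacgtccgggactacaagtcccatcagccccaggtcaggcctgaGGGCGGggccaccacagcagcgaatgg
Thrsp: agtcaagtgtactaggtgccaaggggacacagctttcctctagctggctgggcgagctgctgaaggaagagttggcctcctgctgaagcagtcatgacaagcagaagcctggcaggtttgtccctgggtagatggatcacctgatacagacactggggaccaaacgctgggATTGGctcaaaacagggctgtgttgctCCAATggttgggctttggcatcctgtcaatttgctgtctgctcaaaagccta
The Fasn promoter held 3 CCAAT matches, which began 90, 62 and 59 bases before the start, and the last 2 overlapped by 2 letters on opposite strands. That of Thrsp held 2, which began 79 and 52 bases before the start. Acly had no CCAAT match and 4 GC boxes. Of the 9 promoters, 5 held CCAAT, against 33.8% of all 32851 promoters in the table, and 3 held a GC box, against 32.7%. The letters TCACNCCAC, a form of the sterol response element, were in 0 of the 9 promoters and in 1.05% of all promoters. The E-box CACGTG was also in 0 of the 9, against 6.02% of all. These matches describe letters in a short window, and no binding was measured.

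All 10 genes had a lower mean intensity after TAC than after Sham, where 55.8% of all probes did. For 9 of the 10 each TAC array lay below each Sham array, both over the 7 scanner arrays, where 10.4% of all probes did the same, and over the 8 arrays of the table, where 6.29% did. Nothing is read from these shares, because this contrast chose the genes. Scd2 was the exception. The differences, as TAC mean minus Sham mean of log2 intensity, ran from -2.94 for Fasn to -0.35 for Acacb with a median of -1.55, beside a median of -0.03 over all probes. In 8 arrays the median of the 10 genes was -1.42. Over all probes tested the 5th percentile of the differences was -0.56 and the 1st percentile -1.01, and 9 of the 10 genes lay below the former and 6 below the latter. Because whole tissue was measured, fewer cells of a type and less RNA per cell cannot be told apart.

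**Figure D1:**
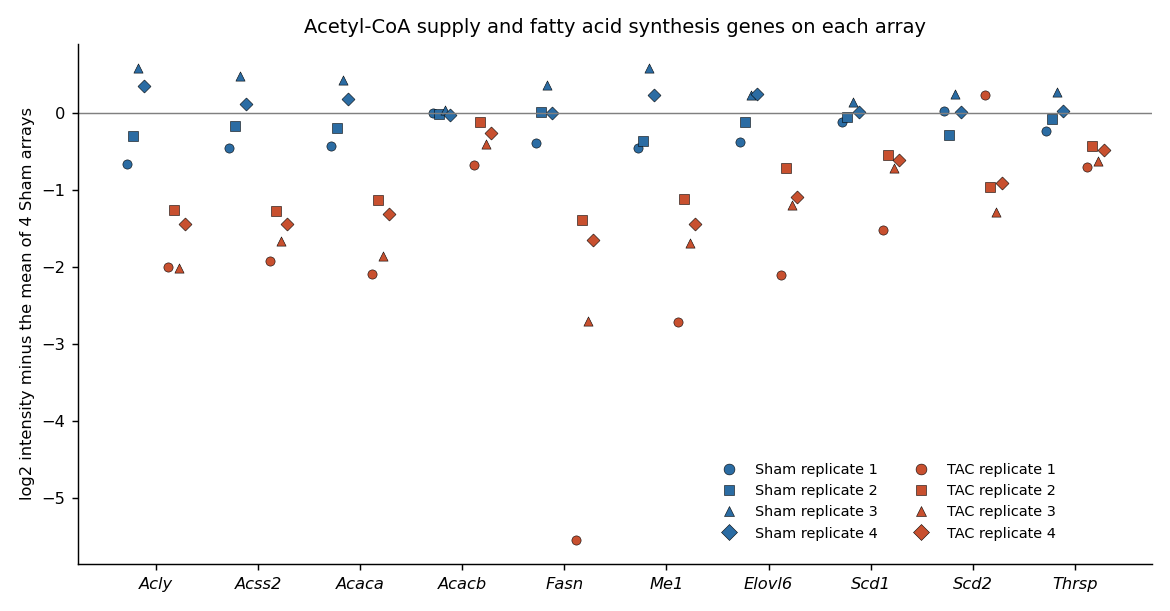
Log2 intensity of each of the 10 genes on each of the 8 arrays, minus the mean of the 4 Sham arrays (vertical axis), by gene (horizontal axis). Points are single arrays, Sham in blue and TAC in orange, with the replicate shown by the symbol; TAC replicate 1 is the lowest array for 8 of the 10 genes, and its Scd2 value lies above the mean of the Sham arrays.

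The 2 enzymes that supply acetyl-CoA had nearly the same difference. Acly, which splits citrate, had a relative intensity of 136, 176, 325 and 277 on Sham replicates 1 to 4 and of 54.1, 90.3, 53.6 and 79.6 on TAC replicates 1 to 4. The groups did not overlap, although the Sham arrays spread over 1.25 on the log2 scale, the widest Sham range of the 10 genes. The mean log2 difference was -1.88 (SD 0.47 in Sham, n = 3, and 0.39 in TAC, n = 4), so that TAC arrays held 27.2% of the Sham intensity. A second Acly probe gave -1.82. Acss2, which activates acetate, had relative intensities of 32.4, 39.4, 62.0 and 47.9 in Sham and of 11.6, 18.3, 13.9 and 16.2 in TAC. Again the highest TAC array was below the lowest Sham array. Its difference was -1.71 (SD 0.34, n = 3, and 0.29, n = 4), or 30.6% of Sham, and its second probe gave -1.72. These probes thus differed from each other by 0.01, the closest pair of probes among the genes with several.

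The 2 acetyl-CoA carboxylases differed from each other in this contrast. Acaca, the cytosolic form whose malonyl-CoA feeds fatty acid synthesis, had relative intensities of 288, 340.5, 524 and 442 in Sham and of 91.2, 177, 107.4 and 157 in TAC. No array of one group reached the other. The difference was -1.72 (SD 0.32, n = 3, and 0.46, n = 4), which left 30.3% of the Sham intensity, and the other 2 probes gave -1.95 and -1.93. Acacb, the form at the outer mitochondrial membrane whose malonyl-CoA restrains fatty acid import, had relative intensities of 146, 144, 150 and 144 in Sham and of 91.0, 135, 111 and 122 in TAC. Its Sham arrays lay within 0.06 of each other on the log2 scale, the narrowest Sham range of the 10 genes. The difference was -0.35 (SD 0.04, n = 3, and 0.25, n = 4), or 78.7% of Sham, the smallest of the 10. At its second probe the difference was -0.29 and the groups overlapped, since TAC replicate 2 lay above the lowest Sham array. Without TAC replicate 1 the second probe gave -0.17.

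Fasn, the synthase that assembles palmitate, showed the largest difference and the widest spread. Its relative intensity was 63.3, 83.3, 106.8 and 83.0 in Sham and 1.76, 31.6, 12.7 and 26.3 in TAC. TAC replicate 1 stood far below the other TAC arrays, at -5.68 from the mean of the 3 Sham scanner arrays, whereas the mean of TAC replicates 2 to 4 was at -2.03. With all 4 TAC arrays the difference was -2.94 (SD 0.21, n = 3, and 1.91, n = 4), a mean 7.66-fold lower intensity. Without TAC replicate 1 it was -2.03, still below every other member. One probe stands for Fasn, and it was well above background on 7 of 7 arrays.

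Me1 is the cytosolic malic enzyme, which returns NADPH to the synthase. Its relative intensity was 68.6, 73.5, 141 and 111 in Sham and 14.3, 43.6, 29.2 and 34.7 in TAC. TAC replicate 1 was again lowest, and the groups did not overlap. The difference was -1.88 (SD 0.48, n = 3, and 0.70, n = 4), or 27.2% of Sham. The 2 further probes, on which TAC replicate 1 was lowest too, gave -1.92 and -1.82.

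The 3 enzymes that modify palmitate had smaller differences than Fasn, with a median of -0.87. Elovl6, which adds a 2-carbon unit to palmitate, had relative intensities of 75.9, 91.0, 117 and 117 in Sham and of 23.0, 60.4, 43.3 and 46.2 in TAC, with no overlap. Its difference was -1.38 (SD 0.22, n = 3, and 0.60, n = 4). Scd1, the delta-9 desaturase that makes monounsaturated fatty acids, had relative intensities of 574, 604, 689.9 and 631 in Sham and of 217, 429, 379 and 408 in TAC. The Sham arrays were close together, TAC replicate 1 was the lowest, and the other 3 TAC arrays lay within 0.18 of each other on the log2 scale. The difference was -0.87 (SD 0.11, n = 3, and 0.46, n = 4), or 54.6% of Sham.

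Scd2, a second delta-9 desaturase, did not follow the order of the other genes. Its relative intensity was 9.81, 7.89, 11.4 and 9.76 in Sham and 11.4, 4.96, 3.97 and 5.14 in TAC. TAC replicate 1 lay at 0.25 above the mean of the 3 Sham scanner arrays, while the mean of TAC replicates 2 to 4 was at -1.02, so the groups overlapped through 1 array. The difference over 7 arrays was -0.70 (SD 0.28, n = 3, and 0.66, n = 4). Scd1 and Scd2 are close relatives, and how far their probes cross-hybridize was not tested.

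Thrsp, a small nuclear and cytosolic protein that binds the carboxylase regulator Mid1ip1 and marks lipogenic tissue, had relative intensities of 473, 529, 674 and 569.5 in Sham and of 343, 413, 363 and 399 in TAC. The TAC arrays lay within 0.27 of each other on the log2 scale, the narrowest TAC range of the 10 genes, and all were below Sham. The difference was -0.62 (SD 0.19, n = 3, and 0.13, n = 4), or 65.0% of Sham.

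**Figure D2:**
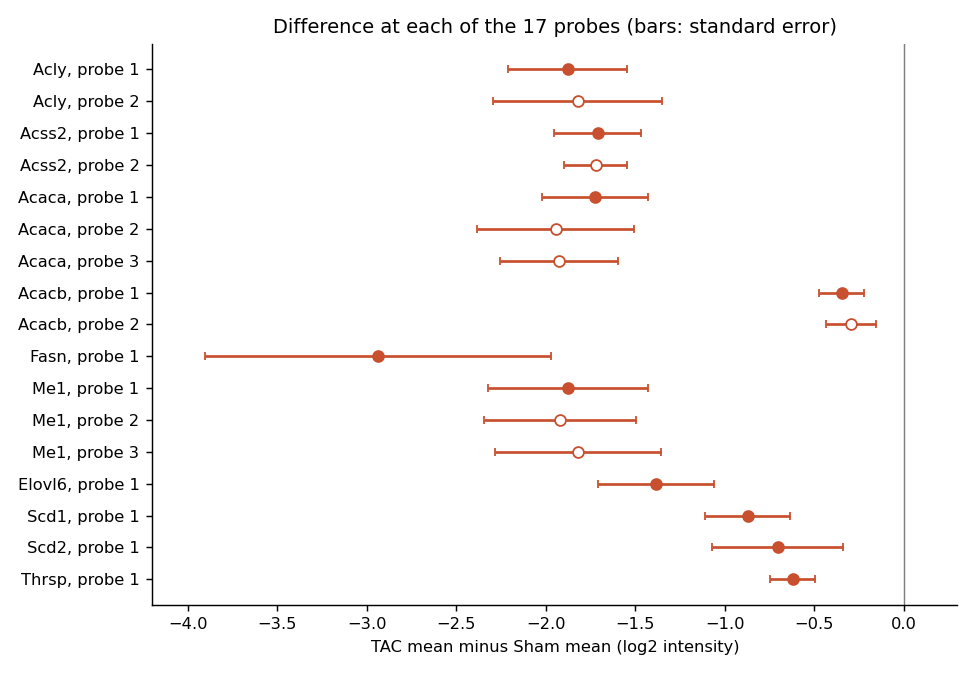
TAC mean minus Sham mean of log2 intensity (horizontal axis) for each of the 17 probes of the 10 genes (vertical axis), with the standard error from the SDs of 3 Sham and 4 TAC arrays. Filled points are the probes that stand for the gene; every point lies below 0, probes of the same gene lie within 0.22 of each other, and Fasn has the widest bar.

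Of the 17 probes, 17 had a negative difference and 15 had each TAC array below each Sham array. The 5 genes with several probes had probe differences that lay between 0.01 and 0.22 apart. By step of the pathway, the median difference was -1.79 for acetyl-CoA supply and -0.87 for elongation and desaturation, and Me1 alone stood for NADPH supply at -1.88. For malonyl-CoA formation the median of -1.04 lies between 2 unlike genes, Acaca at -1.72 and Acacb at -0.35. Fasn stood below all of these step values and Thrsp above them, although Acacb as a single gene was higher than Thrsp.

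The arrays ranked the genes in much the same way. In 8 of the 10 genes the TAC arrays stood in the order replicate 1, 3, 4, 2 from low to high, the exceptions being Acly and Scd2. Among the Sham arrays, the order replicate 1, 2, 4, 3 held for 6 genes. The mean of the 10 genes relative to the 4 Sham arrays was -0.31, -0.15, 0.34 and 0.12 on Sham replicates 1 to 4. It was -1.90, -0.89, -1.41 and -1.06 on TAC replicates 1 to 4. Sham replicate 3 was thus the highest and TAC replicate 1 the lowest of the 8 arrays. Within the Sham group the genes spread over a median of 0.69, beside 0.36 over all probes, and within the TAC group over 0.97, beside 0.43. Among TAC replicates 2 to 4 the median range of the genes was 0.44, beside 0.26 over all probes. These genes rest on the same arrays and animals, so that their shared order is a description of 8 mice.

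Over the 7 scanner arrays, brown adipocyte markers had a lower mean after TAC for 8 of 8 genes, where 55.8% of all probes did. Their median difference was -0.20. Ucp1, the uncoupling protein, and Dio2, the deiodinase that activates thyroid hormone, were picked out after their values were seen. Ucp1 was at -0.61 and Dio2 at -1.10. Dio2 had relative intensities of 1.78, 7.23, 15.7 and 3.04 on TAC replicates 1 to 4 and of 5.59 to 15.3 in Sham. Its groups thus overlapped. The other markers of the list lay between -0.23 and -0.01. The list stood at -0.76, -0.11, 0.10 and -0.35 on TAC replicates 1 to 4, as the mean over 8 of 8 detected genes relative to the 4 Sham arrays. Their summed relative intensity was 3032 to 3899 in Sham and 2376 to 3262 in TAC. In this and the later sums the brightest probes weigh most, because relative intensity is not comparable between probes. The 7 general adipocyte markers stood at -0.19, -0.02, 0.02 and -0.05, with sums of 2541 to 2825 in Sham and 2265 to 2713 in TAC. Of these 7, 5 had a lower and 2 a higher mean after TAC. Plin1, a lipid droplet coat protein, was at -0.35 and Adipoq, the hormone adiponectin, at 0.18, both picked out after their values were seen. Macrophage markers, 10 of 10 of them detected, summed to 51.3 to 56.4 in Sham and to 42.6 to 89.3 in TAC, the highest being TAC replicate 1, at 0.86 above Sham as a mean, with the other TAC arrays between -0.54 and -0.18. Fibroblast markers, 6 of 6 detected, were also highest there, at 0.53, with sums of 199 to 246 in Sham and 196 to 298 in TAC. Lymphocyte markers stood at 0.80 on TAC replicate 1 and between -0.53 and -0.28 on the others, with 6 of 9 detected. Their sums were 9.91 to 11.3 in Sham and 9.64 to 10.9 in TAC, and most of each came from Cd4, at 6.89 on TAC replicate 1.

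Skeletal muscle markers, 10 of 10 detected, had a higher mean after TAC for 10 of 10 genes, with a median difference of 0.98, overlapping groups and sums of 46.0 to 161 in Sham and of 57.5 to 263 in TAC. As a mean they stood at 1.39, 0.86, -0.64 and 1.25 on TAC replicates 1 to 4 and at 0.53, -0.97, 0.59 and -0.15 on Sham replicates 1 to 4. White adipocyte markers, 3 of 4 detected with Hoxc9 too dim, summed to 0.67 to 0.99 in Sham and to 0.47 to 1.47 in TAC. Most of these sums came from 1 gene, Lep, at 1.43 on TAC replicate 1. As a mean the list stood at -0.78, -0.39, -0.36 and 0.27 on TAC replicates 1 to 4. Endothelial markers, 6 of 6 detected, had a lower mean after TAC for 2 genes and a higher one for 4, with a median difference of 0.04. Their sums were 41.5 to 51.3 in Sham and 38.9 to 43.2 in TAC. Cldn5 alone was 15.1 on Sham replicate 4, the array with the highest sum. Erythroid markers, 6 of 8 detected, summed to 1211 to 2526 in Sham and to 1436 to 2213 in TAC. With limma 0 markers passed an adjusted p of 0.05, and at an unadjusted p under 0.05 there was 1 lower brown adipocyte marker, 1 lower general adipocyte marker and 1 higher endothelial marker. The median difference of the members was -1.55 over the 7 scanner arrays and -1.33 without TAC replicate 1. Whether the cell makeup of TAC replicate 1 or of the other arrays plays a part in the values of the members was not tested.

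**Figure D3:**
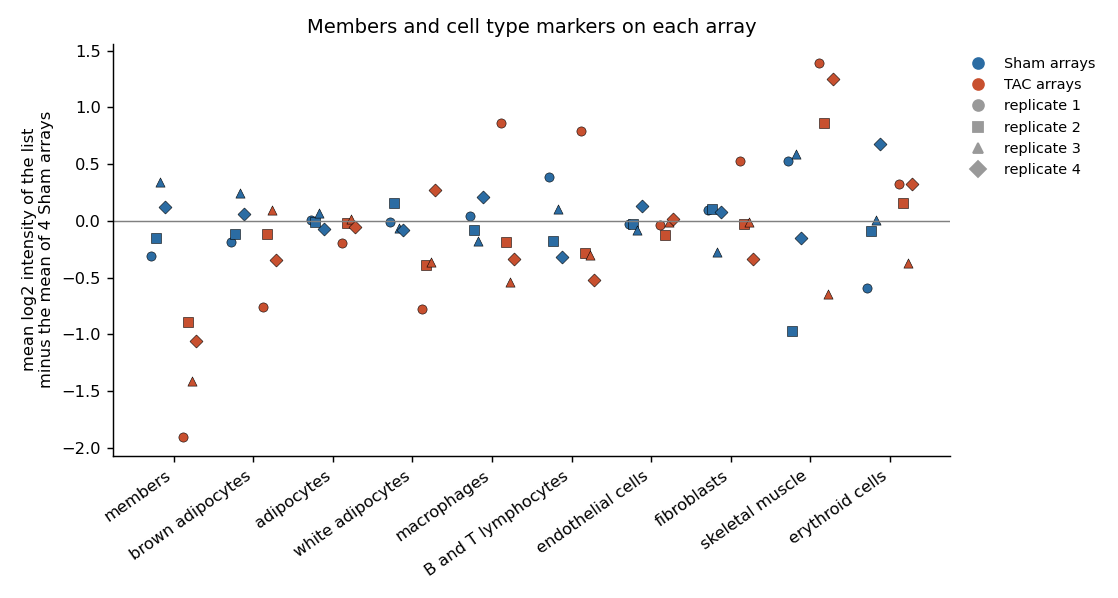
Mean log2 intensity of the 10 genes and of the detected markers of each cell type on each of the 8 arrays, minus the mean of the 4 Sham arrays (vertical axis), by list (horizontal axis). The members lie at -0.89 or lower on the 4 TAC arrays, general adipocyte markers lie between -0.19 and 0.02, and TAC replicate 1 is the highest array for macrophage, lymphocyte, fibroblast and skeletal muscle markers.

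To place the members in the wider pathway, 83 other genes in 7 lists were examined, of which 79 were tested. Nnt and Hsd17b8 had no matched probe, and Elovl2 and Fads2 were too dim. With limma, 0 of the 79 neighbours and 0 of all 33364 probes (0%) passed an adjusted p of 0.05, the smallest adjusted p over all probes being 0.0575, and the methods' t-test also called 0. At an unadjusted p under 0.05, 24 neighbours (30.4%) were lower and 1 (1.27%) was higher after TAC, whereas 2814 of all probes (8.43%) were lower and 1462 (4.38%) higher. Unadjusted, the methods' t-test gave 2587 lower and 1602 higher probes. The neighbours had a median difference of -0.23, with 64 lower and 15 higher, where 55.8% of all probes had a lower mean. For 31 neighbours (39.2%) the TAC arrays all lay below the Sham arrays, as they did for 10.4% of all probes. The shares of 55.8% and, at the unadjusted threshold, 8.43% also stand beside the counts of each list below. Nothing is read from a list with 1 lower gene at that threshold. The lists were written with results of these arrays known, so these counts do not stand apart from the choice of the members.

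Acetyl-CoA and citrate supply had 7 of 8 genes lower, with a median difference of -0.44 and 5 lower at the unadjusted threshold. Slc25a1, the carrier that exports citrate to the cytosol, had relative intensities of 49.2, 54.1, 81.5 and 66.8 in Sham and of 14.2, 32.6, 23.5 and 29.4 in TAC. No TAC array reached the lowest Sham array. Its difference was -1.47 (SE 0.30, limma adjusted p = 0.197).

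NADPH supply had 6 of 9 genes lower, with a median of -0.27, and 4 lower and 1 higher at the unadjusted threshold. Pgd, the second dehydrogenase of the pentose phosphate pathway, had relative intensities of 26.9, 33.9, 47.7 and 39.5 in Sham and of 12.4, 20.2, 17.7 and 17.4 in TAC. Its difference was -1.25 (SE 0.20, limma adjusted p = 0.196), and the groups did not overlap. G6pdx, the first dehydrogenase of that pathway, had a difference of -0.64 (SE 0.10, limma adjusted p = 0.196), with relative intensities of 53.5 to 84.5 in Sham and 46.3 to 52.9 in TAC. Pgls, the lactonase that acts between these enzymes, lay on the other side, at 0.38 (SE 0.08, limma adjusted p = 0.197). Its relative intensities were 19.0 to 20.7 in Sham and 24.4 to 26.9 in TAC, so the groups did not overlap.

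Elongation, desaturation and activation of fatty acids had 15 of 21 genes lower, with a median of -0.24 and 8 lower at the unadjusted threshold. Acsl5, an acyl-CoA synthetase, had relative intensities of 15.1, 19.1, 21.7 and 16.3 in Sham and of 4.80, 9.88, 7.10 and 8.33 in TAC. Its difference was -1.36 (SE 0.25, limma adjusted p = 0.197). Elovl7, an elongase, was dim, well above background on 6 of 7 arrays, with a difference of 0.55 (SE 0.34, limma adjusted p = 0.521). It was 0.33 without TAC replicate 1 and 0.19 with normexp background correction. Elovl3, an elongase typical of BAT that was picked out after its values were seen, had relative intensities of 2.39, 3.43, 4.75 and 3.52 in Sham and of 0.083, 2.03, 2.03 and 0.63 in TAC. Like Fasn, it was far lower on TAC replicate 1 than on the other arrays. The difference was -2.48 (SE 1.09, limma adjusted p = 0.401), and it was -1.47 without TAC replicate 1.

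Malonyl-CoA turnover and control of the carboxylases had 8 of 10 genes lower with a median of -0.16 and 1 lower at the unadjusted threshold. Prkab2, a subunit of the AMP-activated kinase that phosphorylates the carboxylases, was at 0.20 (SE 0.13, limma adjusted p = 0.534). Mitochondrial fatty acid synthesis, a separate pathway that serves lipoic acid, had 6 of 6 genes lower with a median of -0.29 and 4 lower at the unadjusted threshold. Esterification to triglyceride had 6 of 8 lower, a median of -0.25 and 1 lower at the unadjusted threshold. Transcriptional regulators of lipogenesis had 16 of 17 lower with a median of -0.16 and 1 lower at the unadjusted threshold. Srebf1, which encodes SREBP-1, and Mlxipl, which encodes ChREBP, were picked out after their values were seen. Srebf1 had a difference of -0.30 (SE 0.16, limma adjusted p = 0.462), which was -0.19 without Sham replicate 3. Mlxipl had one of -0.27 (SE 0.13, limma adjusted p = 0.439), but only 1 of its 2 probes was lower after TAC, and with its probes averaged the difference was -0.13. In both genes the groups overlapped.

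**Figure D4:**
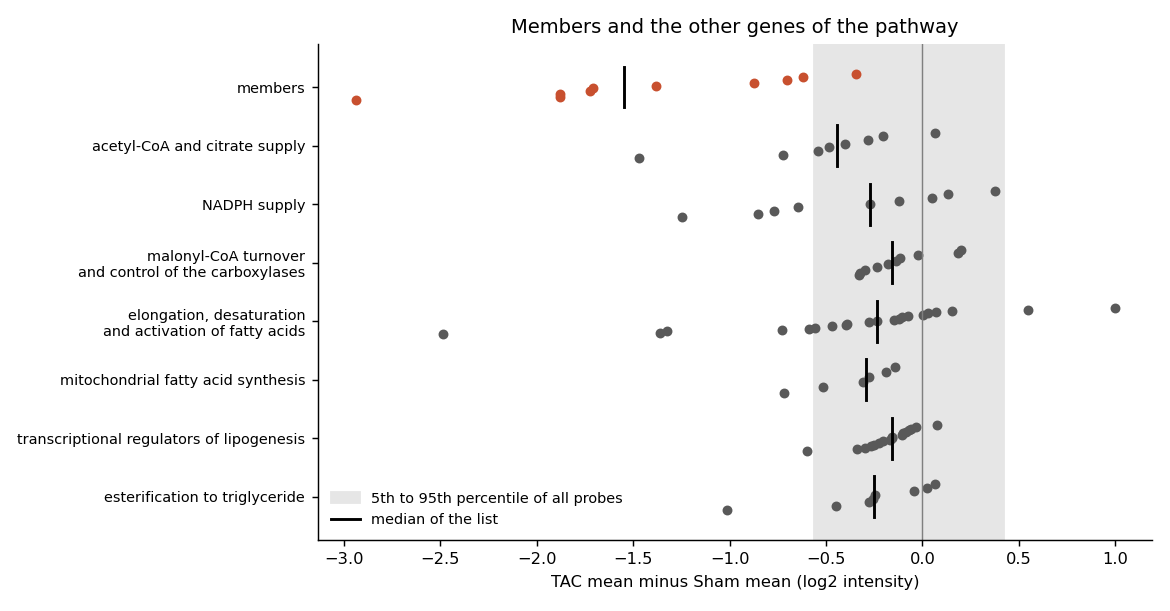
TAC mean minus Sham mean of log2 intensity (horizontal axis) for the 10 members and for the 79 tested neighbours in 7 lists (vertical axis). Each point is a gene, the black bar is the median of the list and the grey band spans the 5th to the 95th percentile over all probes tested, -0.56 to 0.42; the members' median is -1.55 and the lists' medians lie between -0.44 and -0.16.

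Among 14980 genes, those with the profile most like the members over the 8 arrays were Slc25a1, Acsl5, Pygl, Adprhl1 and Pgd. The mean absolute difference between their centred log2 profile and that of the members was 0.05, 0.10, 0.10, 0.12 and 0.14 in that order, beside a median of 0.65 over all genes. Single members lay between 0.12, for Elovl6, and 0.86, for Fasn, from their own mean. The group difference is part of each profile and all points come from the same 8 arrays. Without TAC replicate 1, Slc25a1 again had the smallest distance, and Acsl5, Pygl, Adprhl1 and Pgd held places 6, 2, 5 and 3. Pygl, the liver-type glycogen phosphorylase, had relative intensities of 171, 208, 320 and 267 in Sham and of 82.8, 134, 99.4 and 119 in TAC. Adprhl1, a relative of the enzymes that remove ADP-ribose, had relative intensities of 0.88, 1.16, 1.70 and 1.30 in Sham and of 0.37, 0.59, 0.43 and 0.51 in TAC. In both genes Sham replicate 3 was the highest array and TAC replicate 1 the lowest.

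**Figure D5:**
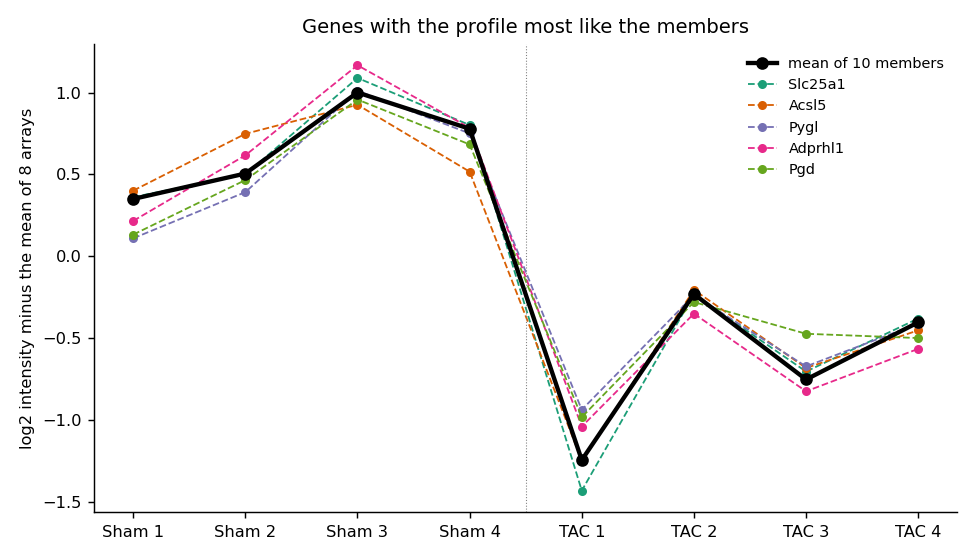
Log2 intensity minus the mean of the 8 arrays (vertical axis) on each array (horizontal axis) for the mean of the 10 members (black) and the 5 genes with the most similar profile (dashed). All 6 lines are highest on Sham replicate 3 and lowest on TAC replicate 1.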

How the data were processed

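Total RNA from BAT of 4 Sham and 4 TAC mice was hybridized to Agilent 1-colour arrays. The authors extracted the spots with Agilent Feature Extraction 10.7.1.1, as the file headers state. The deposited scanner files of 7 arrays hold background-subtracted intensity on a linear scale, not scaled between arrays. A deposited value table covers the 8 arrays with 1 intensity per probe. On each shared array, with dim probes left out, at least 99.8% of its values were within 1% of the scanner intensity times 1 constant. Its dim values were not compared in this way. Its making is not given in the sources used here. Sham replicate 1 was taken from this table only.

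Outlier spots, 134 to 191 per array of 59305, were left out. Log2 intensity minus the 75th percentile of the array was averaged over the spots of a probe. A probe was kept when 3 or more arrays flagged it as well above background and each group had 2 or more values. The 33364 probes kept were fitted with limma 3.58.1 (R 4.3.3), and p-values were adjusted over all of them by Benjamini-Hochberg. p-values measure the spread between single mice of 1 slide. The number of arrays limits the precision. Scripts were tested on simulated data.

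Symbols came from RefSeq accessions through a gene table of GRCm38.p6, which named 28026 of 55681 probes (50.3%). The probe with the highest mean intensity stands for a gene. Members and lists were chosen with earlier results of these data known. Named genes are all members, the 3 neighbours with the smallest p in each direction and the 5 genes with the most similar profile; other genes are said to have been picked out after their values were seen. Alternatives were normexp, median centring, quantile normalization, other filters, and the table of 8 arrays or of the same 7. Others were an intensity trend, Student's t-test, a replicate block, each array left out and averaging a gene's probes. The table without TAC replicate 1 was added after seeing the data.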

Additional observations from a re-analysis of the deposited data

How the results depend on the processing

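The 10 members were lower after TAC in each of 19 alternatives, with a median difference of -1.69 to -1.23, and 9 or 10 of them had every TAC array below every Sham array in the 17 alternatives that give array values. Leaving out 1 array at a time gave medians of -1.69 to -1.33. All 306 values of member probes under 18 alternatives were negative, and 1 moved by more than the SD, the second Acss2 probe, at -1.44 in the table without TAC replicate 1, which was chosen after seeing the data. Fasn ranged from -3.42 to -1.91, with -2.03 without TAC replicate 1. Over all probes, normexp called 1, a probe of the member Acss2, from which nothing is read. Leaving out an array called 0 to 8, the 8 without TAC replicate 4, and the cause was not tested. Without Sham replicate 3 the unadjusted counts were 1602 lower and 893 higher. Neighbours called stayed at 0, and 209 of 209 values of named neighbours kept their direction, while Elovl7, Elovl3, Srebf1 and Mlxipl moved by over 1.5 times in the settings given beside their values. With the replicate block, the member median was -1.33 on the scanner arrays and -1.42 in the table, and 0 probes were called in both. Deviations of same-numbered arrays from their group means had correlations of -0.03 to 0.00 on the scanner arrays and 0.02 to 0.27 in the table. Arrays with different numbers were not compared, so these values cannot show whether the numbers pair the mice. Slide as a block was not run, because there was 1 slide. With 3 or 4 arrays a group, small differences cannot be seen.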
